A study of Mus musculus with 57 samples.

Results

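The genes described here make reactive oxygen and nitrogen species at the gut surface or remove them: Duox2, Duoxa2, Nox1, Noxo1, Noxa1, Nos2 and Gpx2. The 7 genes were named by symbol, and each was read from the brightest microarray probe set that carries its symbol alone. Of the 7, 5 were measured, among 22180 genes measured in all. Duoxa2 was carried only by a probe set shared with Duoxa1, and Noxo1 only by one shared with Tbl3, so neither is given a value.

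Dual oxidase 2, encoded by Duox2, is a membrane enzyme that releases hydrogen peroxide from the apical side of epithelial cells, and it needs its maturation factor, encoded by Duoxa2, to reach the surface. Nox1 encodes the catalytic subunit of the main superoxide-producing NADPH oxidase of colon epithelium, with Noxo1 as its organizer and Noxa1 as its activator. Nos2 encodes the inducible nitric oxide synthase, made by epithelial and myeloid cells in inflammation, and Gpx2 encodes a glutathione peroxidase of the gut epithelium that reduces hydroperoxides.

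Distal colon came from female C57BL/6 mice of 18 to 24 weeks. The INSRfl/fl mice (here fl/fl) carry a floxed insulin receptor gene, and their villin-CRE-INSR-/- littermates (here knockout) lack it in the intestinal epithelium, where villin-CRE is active, but not in other cells of the tissue. Treated mice received the carcinogen azoxymethane (AOM, 7.4 mg/kg, i.p.) and, in week 2, a single course of the irritant dextran sulfate sodium (DSS, 3%) for 7 days, and were killed in week 5. The labels also state a recovery time after DSS, and whether it fits these weeks depends on how the weeks are counted. The groups were fl/fl untreated colon (n = 10), knockout untreated colon (n = 10), fl/fl AOM+DSS colon (n = 10), knockout AOM+DSS colon (n = 10), fl/fl tumor (n = 8) and knockout tumor (n = 9), 57 arrays in all. Whether any mouse gave both a tumor and a colon array is not stated in the labels.

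Array medians lay between 5.92 and 6.04 on the log2 scale. Each array correlated with the other arrays of its group at 0.98 to 0.99 on average over all genes. Knockout samples had lower levels of Insr, the deleted gene, by 0.94 ± 0.10 in untreated colon (log2 difference ± SE, limma adjusted p = 6.71e-09), by 0.84 ± 0.10 in AOM+DSS colon and by 0.65 ± 0.11 in tumors. Ranges did not overlap in either kind of colon. Among tumors the library labelled knockout tumor replicate 8 had an Insr value of 8.35, inside the fl/fl tumor range of 7.70 to 8.50. Without it each measured gene kept its call, or its lack of one, in every comparison that uses knockout tumors. Most knockout tumor values below include it, and some are also given without it. The pan-epithelial markers Epcam and Cdh1 were high in every group (means 11.91 to 12.05 and 12.21 to 12.33, log2). Of the 8 epithelial markers 5 were lower in tumors than in untreated colon of either genotype, and 1 was higher in fl/fl and 2 in knockout mice. Of all genes, 45.4% and 47.3% differed in these comparisons (limma, adjusted p under 0.05). Lower ones included the intestinal factor Cdx2, with means of 8.35 and 8.56 in untreated fl/fl and knockout colon and 7.64 and 7.29 in tumors. A list of 7 genes that mark distal position, mostly posterior Hox genes, was low in knockout untreated colon replicate 2, at a list mean of 6.94 against 8.41 or more in the other 9 arrays of that group. It reached as low as 6.62 in fl/fl tumors and 6.59 in knockout tumors.

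The stretches of 250 bases before an annotated transcript start of 4 genes are shown because 2 of the genes form a divergent pair and the other 2 carry the same short motif. Windows from RefSeq (GRCm38.p6) were matched for 6 of the 7 genes. Nos2 (chromosome 11, 78920787 to 78960226) was not among them. Duox2 (chromosome 2, 122279246 to 122298740, minus strand) and Duoxa2 (122298900 to 122302885, plus strand) lie head to head, with 160 bases from the end of the Duox2 gene to the start of Duoxa2. The windows are chr2:122298228-122298477 for Duox2 (minus strand), chr2:122298650-122298899 for Duoxa2 (plus strand), chr12:76795555-76795804 for Gpx2 (minus strand) and chrX:134111855-134112104 for Nox1 (minus strand). The Duox2 and Nox1 windows lie inside the annotated spans of their own genes, before a transcript start that is not the outermost one (Nox1, chromosome X, 134086421 to 134137711). Capitals mark motif matches.
Duox2: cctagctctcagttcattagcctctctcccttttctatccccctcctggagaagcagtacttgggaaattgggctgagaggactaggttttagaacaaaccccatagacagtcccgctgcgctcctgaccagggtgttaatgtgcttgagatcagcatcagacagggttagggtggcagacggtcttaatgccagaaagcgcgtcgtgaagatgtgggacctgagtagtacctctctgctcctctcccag
Duoxa2: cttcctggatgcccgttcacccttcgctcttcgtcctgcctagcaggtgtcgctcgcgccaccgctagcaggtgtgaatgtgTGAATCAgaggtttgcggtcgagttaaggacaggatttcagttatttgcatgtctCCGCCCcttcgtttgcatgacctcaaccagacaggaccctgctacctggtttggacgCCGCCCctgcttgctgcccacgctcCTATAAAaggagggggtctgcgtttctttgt
Gpx2: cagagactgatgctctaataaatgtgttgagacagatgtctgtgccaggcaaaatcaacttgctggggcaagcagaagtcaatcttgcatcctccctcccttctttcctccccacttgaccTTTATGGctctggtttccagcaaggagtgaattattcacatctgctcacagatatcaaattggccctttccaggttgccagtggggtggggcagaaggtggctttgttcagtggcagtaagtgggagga
Nox1: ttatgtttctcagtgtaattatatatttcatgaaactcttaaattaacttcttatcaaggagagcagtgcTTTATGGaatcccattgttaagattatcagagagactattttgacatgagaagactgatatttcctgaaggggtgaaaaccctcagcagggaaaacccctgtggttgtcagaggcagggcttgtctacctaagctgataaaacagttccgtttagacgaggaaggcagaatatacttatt

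Both strands of each window were searched for 12 motifs: TATAAA (the TATA box), TTCNNNGAA (STAT), TGACNNNGC (the antioxidant response element), CTTTGAT (TCF/LEF), the NF-kB motif, the HNF1 motif, CAAAGTCCA (HNF4), TGANTCA (AP-1), TTTATNG (CDX2), CACGTG (the E-box), the interferon-stimulated response element (ISRE) and GGGCGG (KLF/SP1). In the 6 windows of these genes 4 motifs matched and 8 did not. The Duoxa2 window held TATAAA from 30 to 25 bases before the start, which overlaps a CDX2 match on the other strand. It also held AP-1 from 168 to 162 bases before the start and KLF/SP1 at 113 and 56. The Gpx2 window held TTTATGG, a CDX2 match, 129 bases before the start, and the Nox1 window held the same letters 180 bases before it. The Noxo1 window held KLF/SP1 at 231 and 17 bases before the start, and the Duox2 and Noxa1 windows held none of the 12. The stretch between Duox2 and Duoxa2, before the outermost Duox2 start, lies in the Duoxa2 window. The Duox2 window does not reach that stretch, so its lack of matches does not cover it. Over all 32851 windows of this length, TATAAA was found in 12.4%, AP-1 in 6.75%, CDX2 in 9.81% and KLF/SP1 in 32.7%. The motifs without a match were found in 7.02% (STAT), 10.2% (antioxidant response element), 3.21% (TCF/LEF), 1.21% (NF-kB), 0.00913% (HNF1), 0.384% (HNF4), 6.02% (E-box) and 2.98% (ISRE) of all windows.

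Nos2 and Duox2 were higher in AOM+DSS colon than in untreated colon in both genotypes, and Noxa1 was lower. These were 3 of the 5 measured genes in each genotype, 2 higher and 1 lower. Of all genes, 22.7% passed the test in fl/fl mice (12.2% higher, 10.5% lower) and 30.2% in knockout mice (16.0% higher, 14.2% lower; limma, adjusted p under 0.05 over 22180 genes). Nox1 and Gpx2 did not pass in either genotype. The median log2 change of the 5 genes was 0.25 in fl/fl and 0.43 in knockout mice, beside -0.039 and -0.04 over all genes.

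**Figure D1:**
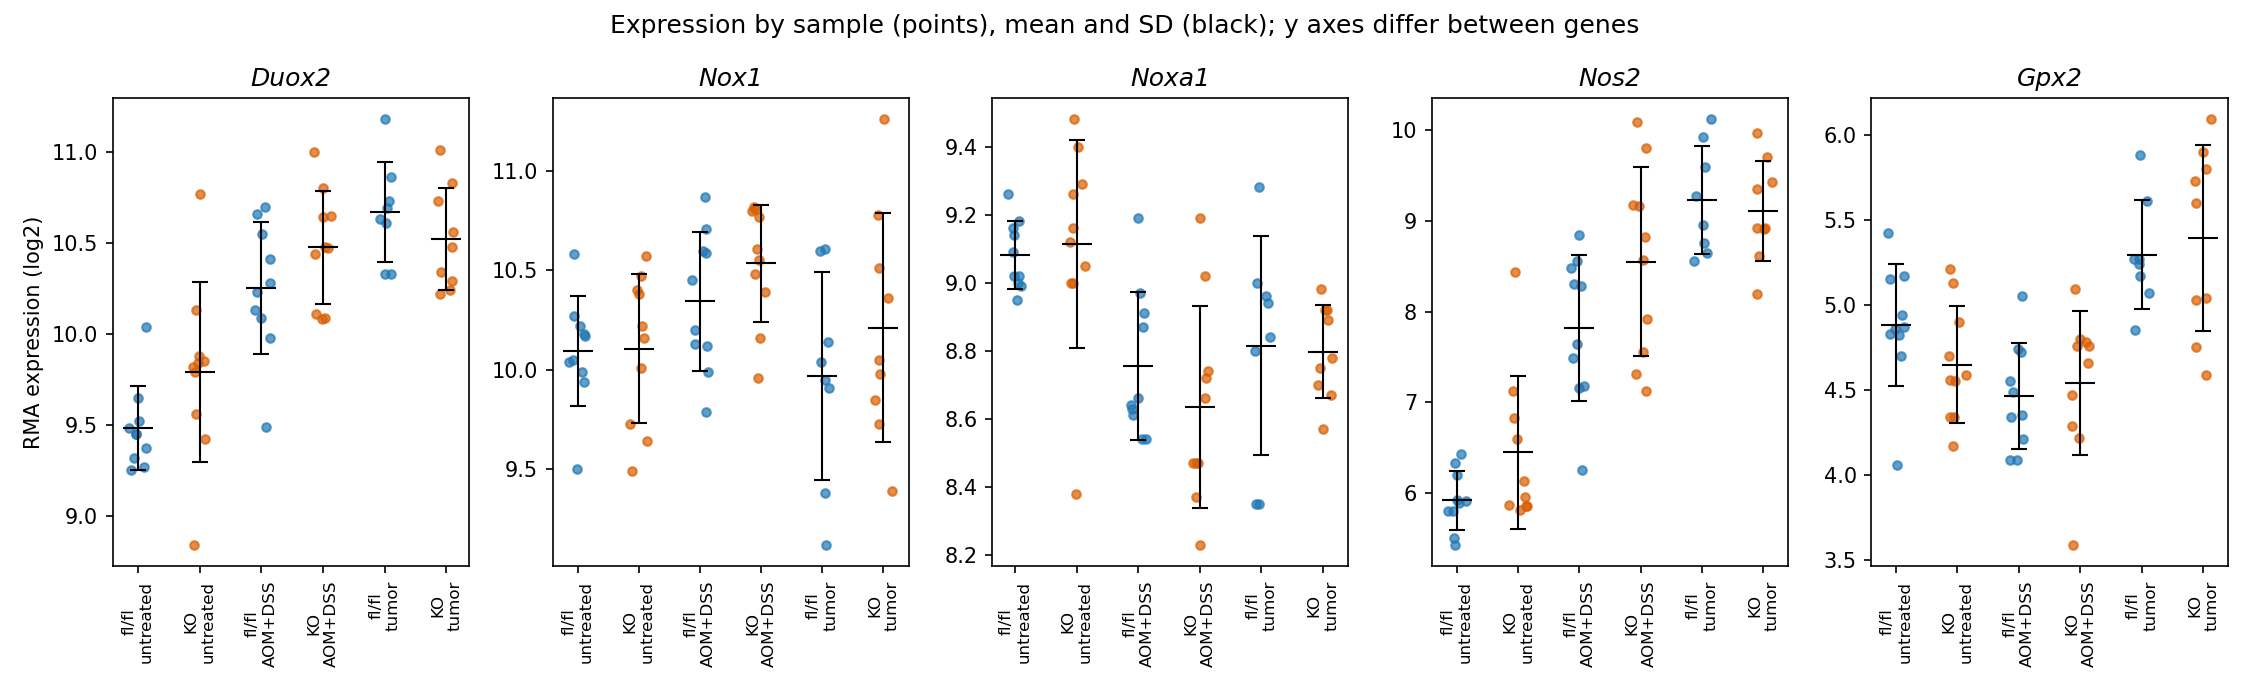
RMA expression on the log2 scale (y axis, a different range for each gene) of Duox2, Nox1, Noxa1, Nos2 and Gpx2 in each sample, by group (x axis; KO, knockout). Points are samples (blue fl/fl, orange knockout) and black marks the mean and SD. Nos2 means run from 5.92 in fl/fl untreated colon to 9.23 in fl/fl tumors, and Gpx2 means are highest in tumors of both genotypes (5.30 and 5.39).

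Nos2 had the widest span. In fl/fl untreated colon the log2 values ran from 5.43 to 6.43 with a median of 5.90, and in fl/fl AOM+DSS colon from 6.26 to 8.84 with a median of 7.96. All but 1 of the 10 treated samples lay above every untreated sample. The exception, replicate 1 at 6.26, was also the lowest of its group for Duox2. The log2 change was 1.90 ± 0.32 (SE), a 3.73-fold rise (limma adjusted p = 1.03e-05). In knockout mice untreated values ran from 5.81 to 8.44 (median 6.05) and AOM+DSS values from 7.12 to 10.09 (median 8.69). The ranges overlapped through replicate 5 of the untreated group, at 8.44, while the next value in that group was 7.12. The change was 2.10 ± 0.32, or 4.30-fold (limma adjusted p = 4.72e-07).

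Duox2 rose by less on the log2 scale. Its values were 9.25 to 10.04 (median 9.45) in fl/fl untreated colon and 9.49 to 10.70 (median 10.25) in fl/fl AOM+DSS colon, where 8 of 10 samples exceeded every untreated one. The change was 0.77 ± 0.15, or 1.70-fold (limma adjusted p = 8.71e-05). In knockout mice the values were 8.84 to 10.77 (median 9.83) in untreated colon and 10.08 to 11.00 (median 10.47) in AOM+DSS colon, a change of 0.69 ± 0.15 (limma adjusted p = 0.000199). Of the treated knockout samples 2 exceeded every untreated one. The highest untreated value, 10.77, was that of replicate 2, the array with the low distal list. Without that array the change was 0.79 ± 0.14.

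Noxa1, the activator subunit, moved the opposite way. In fl/fl mice it was 8.95 to 9.26 (median 9.06) in untreated colon and 8.54 to 9.19 (median 8.65) in AOM+DSS colon, where 8 of 10 samples lay below every untreated sample. The change was -0.33 ± 0.11 (limma adjusted p = 0.0212). In knockout mice it was 8.38 to 9.48 (median 9.14) untreated and 8.23 to 9.19 (median 8.56) treated, a change of -0.48 ± 0.11 (limma adjusted p = 0.000308). With the mean of 9 squamous epithelium markers as a covariate, the change was -0.13 ± 0.11 in fl/fl mice, which no longer passed (limma adjusted p = 0.425), and -0.30 ± 0.10 in knockout mice. That list rose in AOM+DSS colon for 6 of its 9 genes in either genotype, beside 12.2% of all genes in fl/fl and 16.0% in knockout mice. Its mean ran from 5.01 to 9.21 in treated fl/fl samples and from 5.03 to 8.37 in untreated ones. This covariate was added after the data were seen, and it rose with the treatment itself. The part of squamous epithelium in the Noxa1 change was not tested.

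Nox1, the catalytic partner of Noxa1, had log2 values of 9.50 to 10.58 in fl/fl untreated colon and 9.79 to 10.87 in fl/fl AOM+DSS colon. Its change was 0.25 (95% confidence interval -0.10 to 0.60) in fl/fl and 0.43 (0.079 to 0.78) in knockout mice, with limma adjusted p of 0.308 and 0.0558. The knockout value passed the threshold when any 1 of 6 single arrays was left out, with adjusted p from 0.0277 to 0.125 over the 20 arrays. Gpx2 changed by -0.42 ± 0.17 in fl/fl mice (limma adjusted p = 0.0645) and by -0.11 ± 0.17 in knockout mice (0.682). The Gpx2 probe set was dim, with a mean at the 22.5th percentile of all genes, against 94.3 for Duox2, 94.6 for Nox1, 82.5 for Noxa1 and 66.8 for Nos2.

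In bulk tissue, a change in the number of cells of a type and a change in RNA per cell cannot be told apart. Markers of several cell types rose beside Nos2. In AOM+DSS colon all 9 neutrophil markers and all 10 macrophage markers passed the test as higher in both genotypes. There 12.2% of all genes passed as higher in fl/fl and 16.0% in knockout mice. The neutrophil list mean was 6.00 to 6.28 in fl/fl untreated colon and 6.22 to 8.72 in fl/fl AOM+DSS colon. In knockout mice it was 5.84 to 6.28 untreated and 6.55 to 8.80 treated. The fl/fl AOM+DSS sample with the lowest Nos2 value, replicate 1, also had the lowest neutrophil mean of its group, 6.22. The lowest macrophage mean of that group, 9.10, was that of replicate 2. B cell (6 of 6) and fibroblast (6 of 6) markers also passed as higher in both genotypes, as did 5 of 7 T cell markers in fl/fl and 7 of 7 in knockout mice. The part of these cells in the Nos2 and Duox2 values was not tested. Epithelial markers did not pass in fl/fl mice (0 of 8), where 22.7% of all genes passed. In knockout mice 3 of 8 were lower and none higher, where 30.2% of all genes passed and 14.2% were lower.

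**Figure D2:**
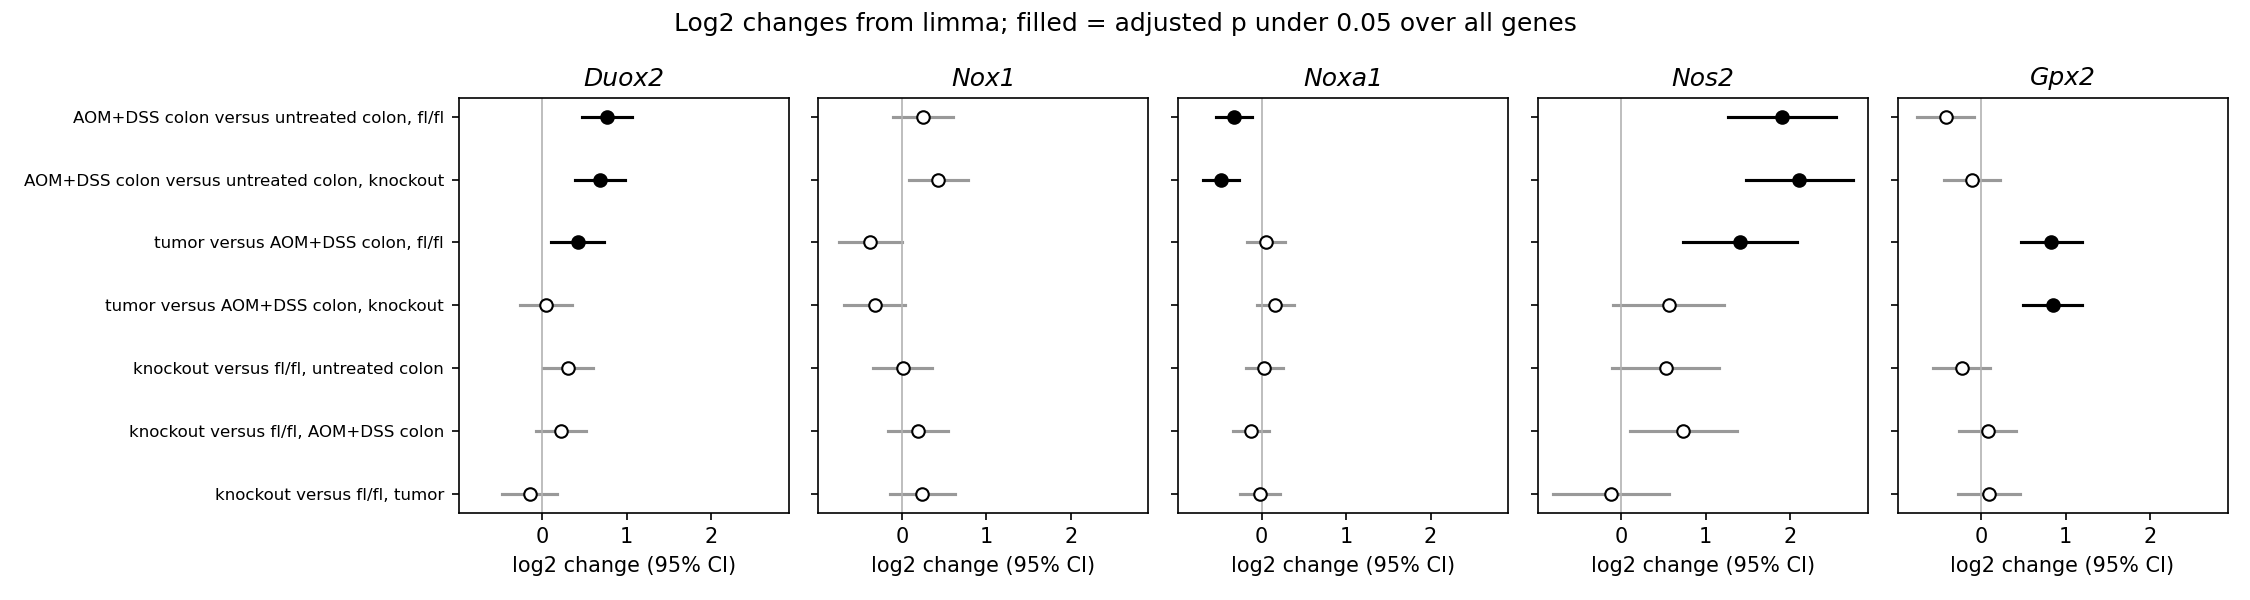
Log2 change (x axis) with its 95% confidence interval for the 5 measured genes in 7 comparisons (y axis). Filled points passed the limma test over all genes and open points did not. Nos2 and Duox2 lie right of 0 and Noxa1 left of 0 in AOM+DSS colon of both genotypes, Gpx2 lies right of 0 in tumors of both genotypes, and no genotype comparison is filled.

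Gpx2 was higher in tumors than in AOM+DSS colon in both genotypes, and Nos2 and Duox2 were higher in tumors of fl/fl mice. The AOM+DSS colon samples are the same as in the comparison with untreated colon. That was 3 of 5 genes in fl/fl mice, where 41.2% of all genes passed (21.0% higher, 20.2% lower), and 1 of 5 in knockout mice, where 42.9% passed (21.5% higher, 21.4% lower). The knockout count is below the share of all genes, and neither count stands as a result about these genes.

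Gpx2, the peroxide-reducing enzyme, ran from 4.09 to 5.05 (median 4.42, log2) in fl/fl AOM+DSS colon and from 4.85 to 5.88 (median 5.26) in fl/fl tumors. All but 1 of the 8 tumors lay above every colon sample. The change was 0.83 ± 0.18, or 1.78-fold (limma adjusted p = 9.73e-05). In knockout mice Gpx2 ran from 3.59 to 5.09 (median 4.71) in AOM+DSS colon and from 4.59 to 6.09 (median 5.60) in tumors, where 5 of 9 exceeded every colon sample. The change was 0.85 ± 0.17 (limma adjusted p = 4.1e-05), and 0.89 ± 0.18 without knockout tumor replicate 8. The Gpx2 changes in either genotype rest on the dim probe set, with a mean at the 22.5th percentile of all genes.

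Nos2 in fl/fl tumors ran from 8.56 to 10.12 (median 9.11), and 5 of 8 tumors exceeded every fl/fl AOM+DSS colon sample. The change was 1.41 ± 0.34, or 2.66-fold (limma adjusted p = 0.000426). In knockout tumors it ran from 8.19 to 9.97 (median 8.92), inside the range of knockout AOM+DSS colon, with a change of 0.56 ± 0.33 (limma adjusted p = 0.174). Duox2 ran from 10.33 to 11.18 (median 10.66) in fl/fl tumors and from 10.22 to 11.01 (median 10.48) in knockout tumors. Its change from AOM+DSS colon was 0.42 ± 0.16 in fl/fl mice (limma adjusted p = 0.0254) and 0.046 ± 0.15 in knockout mice (0.849). The fl/fl Duox2 call was lost without AOM+DSS colon replicate 1 (0.34, limma adjusted p = 0.0746) or without tumor replicate 7 (0.35, 0.0773). It was also lost with each of 3 marker list means as a covariate, at 0.38 ± 0.16 with the squamous list (limma adjusted p = 0.0558), 0.28 ± 0.16 with the distal list (0.191) and 0.13 ± 0.31 with the smooth muscle list (0.894).

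The calls in fl/fl tumors alone were not shown to differ between genotypes. The genotype difference in the tumor change was -0.85 ± 0.47 for Nos2 (95% interval -1.79 to 0.089, limma adjusted p = 0.772) and -0.37 ± 0.22 for Duox2 (-0.81 to 0.062, 0.79). Without knockout tumor replicate 8 it was -0.79 ± 0.48 for Nos2 and -0.40 ± 0.22 for Duox2, again without passing.

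Neither Nox1 nor Noxa1 passed in tumors against AOM+DSS colon. Nox1 ran from 9.12 to 10.61 (median 10.00) in fl/fl tumors and from 9.39 to 11.26 (median 10.05) in knockout tumors, the widest spread of the 6 groups for this gene (SD 0.52 and 0.58). Its change was -0.38 (95% interval -0.75 to -0.0034, limma adjusted p = 0.103) in fl/fl mice and -0.32 (-0.68 to 0.037, 0.15) in knockout mice. Without knockout tumor replicate 2, at 11.26, the knockout change was -0.45 and passed (limma adjusted p = 0.0289). Without fl/fl tumor replicate 2 or 7 the fl/fl change was -0.47 and passed. Noxa1 changed by 0.057 ± 0.11 and 0.16 ± 0.11.

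Tissue makeup differed between tumors and colon. All 8 smooth muscle markers were lower in tumors than in AOM+DSS colon of either genotype (median log2 change -1.70 in fl/fl and -1.61 in knockout mice), as were all 6 measured markers of surface colonocytes (-2.31 and -2.19). Ranges of the smooth muscle list mean were 11.39 to 12.01 in fl/fl AOM+DSS colon and 9.72 to 10.68 in fl/fl tumors. With that list mean as a covariate, no tumor call of Nos2 or Gpx2 held, nor did the Duox2 calls in fl/fl tumors against AOM+DSS colon and in knockout tumors against untreated colon. The fl/fl change against AOM+DSS colon was then -0.44 ± 0.62 for Nos2 and -0.013 ± 0.34 for Gpx2, where the standard errors without it were 0.34 and 0.18. The knockout Gpx2 change was then 0.035 ± 0.33. The list mean did not overlap between tumors and AOM+DSS colon in either genotype, so this covariate and the tissue cannot be told apart. Nox1, not called without a covariate (limma adjusted p = 0.103 and 0.15), passed as lower in tumors of both genotypes with the squamous and distal lists. Its change was -0.51 in fl/fl and -0.49 in knockout mice with the squamous list (limma adjusted p = 0.0228 and 0.0268), and -0.61 and -0.45 with the distal list (0.00732 and 0.0283). With the smooth muscle list it was -1.34 ± 0.35 and -1.25 ± 0.33 (limma adjusted p = 0.007 and 0.00863), from the fit where list and tissue cannot be told apart. Of the other lists, B cell markers were lower in tumors (6 of 6 in both genotypes), neutrophil markers were higher for 4 of 9 in fl/fl and 3 of 9 in knockout mice with 1 lower in each, and epithelial markers were lower for 4 of 8 and 5 of 8 with 1 higher in each. Macrophage markers were lower for 3 of 10 in fl/fl and 6 of 10 in knockout mice with 1 higher in each, T cell markers for 1 of 7 and 5 of 7, fibroblast markers for 4 of 6 and 5 of 6, and distal position genes for 5 of 7 and 2 of 7. Of all genes, 41.2% passed in fl/fl mice (21.0% higher, 20.2% lower) and 42.9% in knockout mice (21.5% higher, 21.4% lower). Counts near these shares, such as macrophage markers in fl/fl and neutrophil markers in knockout mice, do not stand as results about a list.

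Against untreated colon, Nos2, Duox2 and Noxa1 passed in tumors of both genotypes, and Gpx2 passed in knockout mice. That was 3 of 5 genes in fl/fl mice, with 45.4% of all genes passing (22.9% higher, 22.5% lower), and 4 of 5 in knockout mice, with 47.3% (23.6% higher, 23.7% lower). Nos2 was 9.91-fold higher in fl/fl tumors (log2 3.31 ± 0.34, limma adjusted p = 1.57e-12), and the 8 tumors did not overlap with untreated colon. It was 6.34-fold higher in knockout tumors (2.66 ± 0.33, 3.92e-10), where 8 of 9 exceeded every untreated sample. Duox2 was higher by 1.19 ± 0.16 in fl/fl tumors (limma adjusted p = 3.12e-09), again with no overlap, and by 0.73 ± 0.15 in knockout tumors (4.2e-05). Noxa1 was lower by 0.27 in fl/fl tumors at an adjusted p of 0.0462 (limma), a call lost without any 1 of 9 single arrays, and changed by -0.32 ± 0.11 in knockout tumors (0.013). Gpx2 changed by 0.42 ± 0.18 in fl/fl tumors (limma adjusted p = 0.0526) and by 0.74 ± 0.17 in knockout tumors (0.000251). With the smooth muscle list as a covariate, Duox2 still passed in fl/fl tumors (0.90 ± 0.31, limma adjusted p = 0.0407). Nos2 then did not (1.50 ± 0.61, 0.103), and no gene passed in knockout tumors. Here too the list mean did not overlap between tumors and colon, so list and tissue cannot be told apart.

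Between knockout and fl/fl mice, none of the 5 genes differed past the threshold in any of the 3 tissue states. The counts were 0 of 5 in untreated colon, 0 of 5 in AOM+DSS colon and 0 of 5 in tumors, where 0.00451%, 0.541% and 0.00902% of all genes passed (limma). Those in AOM+DSS colon were 0.419% higher and 0.122% lower in knockout mice. At an unadjusted p under 0.05 the counts over all genes were 1114, 2898 and 990. Nos2 was 0.73 ± 0.32 higher in knockout than in fl/fl AOM+DSS colon (95% interval 0.10 to 1.37, limma adjusted p = 0.279), with 4 of 10 knockout samples above every fl/fl sample. Duox2 was 0.31 ± 0.15 higher in knockout untreated colon (0.014 to 0.60, limma adjusted p = 0.969), and 0.20 ± 0.14 without replicate 2. In tumors the genotype differences were -0.15 ± 0.16 for Duox2 and -0.12 ± 0.34 for Nos2. Without knockout tumor replicate 8 they were -0.18 ± 0.17 and -0.054 ± 0.36. With all arrays, the 3 genotype differences of Nox1, Noxa1 and Gpx2 lay between -0.23 and 0.24. The Nox1 difference in tumors was 0.30 ± 0.19 without that replicate. The genotype difference in the response to AOM+DSS passed for 0 of 5 genes, as for 0% of all genes, with 1351 genes at an unadjusted p under 0.05 (limma). For the tumor change it again passed for 0 of 5 and 0% of all genes, with 1470 at an unadjusted p under 0.05.

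In order of group means, Nos2 and Duox2 ran from untreated colon through AOM+DSS colon to tumors, with fl/fl untreated colon lowest (5.92 and 9.48) and fl/fl tumors highest (9.23 and 10.67). Of neighbouring groups in that order, only knockout untreated colon and fl/fl AOM+DSS colon differed by more than the larger SD for Nos2 (1.37 against 0.84), and no neighbours did for Duox2. Gpx2 was lowest in fl/fl AOM+DSS colon (4.46), and only the step from fl/fl untreated colon (4.88) to fl/fl tumors (5.30) exceeded the larger SD. Noxa1 was lowest in knockout AOM+DSS colon (8.63) and highest in knockout untreated colon (9.12), and Nox1 lowest in fl/fl tumors (9.97) and highest in knockout AOM+DSS colon (10.54). For Noxa1 and Nox1 no neighbouring groups differed by more than the larger SD.

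Within groups, 4 pairs of genes were compared in each of the 6 groups, 24 tests in all. By Pearson correlation 1 passed after Benjamini-Hochberg adjustment, and by Spearman correlation 0 passed, with 7 Pearson tests at an unadjusted permutation p under 0.05. The pair that passed was Duox2 with Nos2 in knockout AOM+DSS colon (n = 10, r = 0.92, two-sided permutation p = 0.00029, adjusted p = 0.00696). There Spearman's rho was 0.81 (permutation p = 0.00738, adjusted p = 0.123), and r was 0.87 without the 2 samples farthest from the Duox2 median. In fl/fl AOM+DSS colon the same pair gave r = 0.79 (n = 10, permutation p = 0.00677, adjusted p = 0.0542), falling to 0.50 without the 2 farthest samples. In fl/fl tumors Nox1 with its activator Noxa1 gave r = 0.91 (n = 8, exact permutation p = 0.00558, adjusted p = 0.0542), with 0.66 without the 2 farthest.

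**Figure D3:**
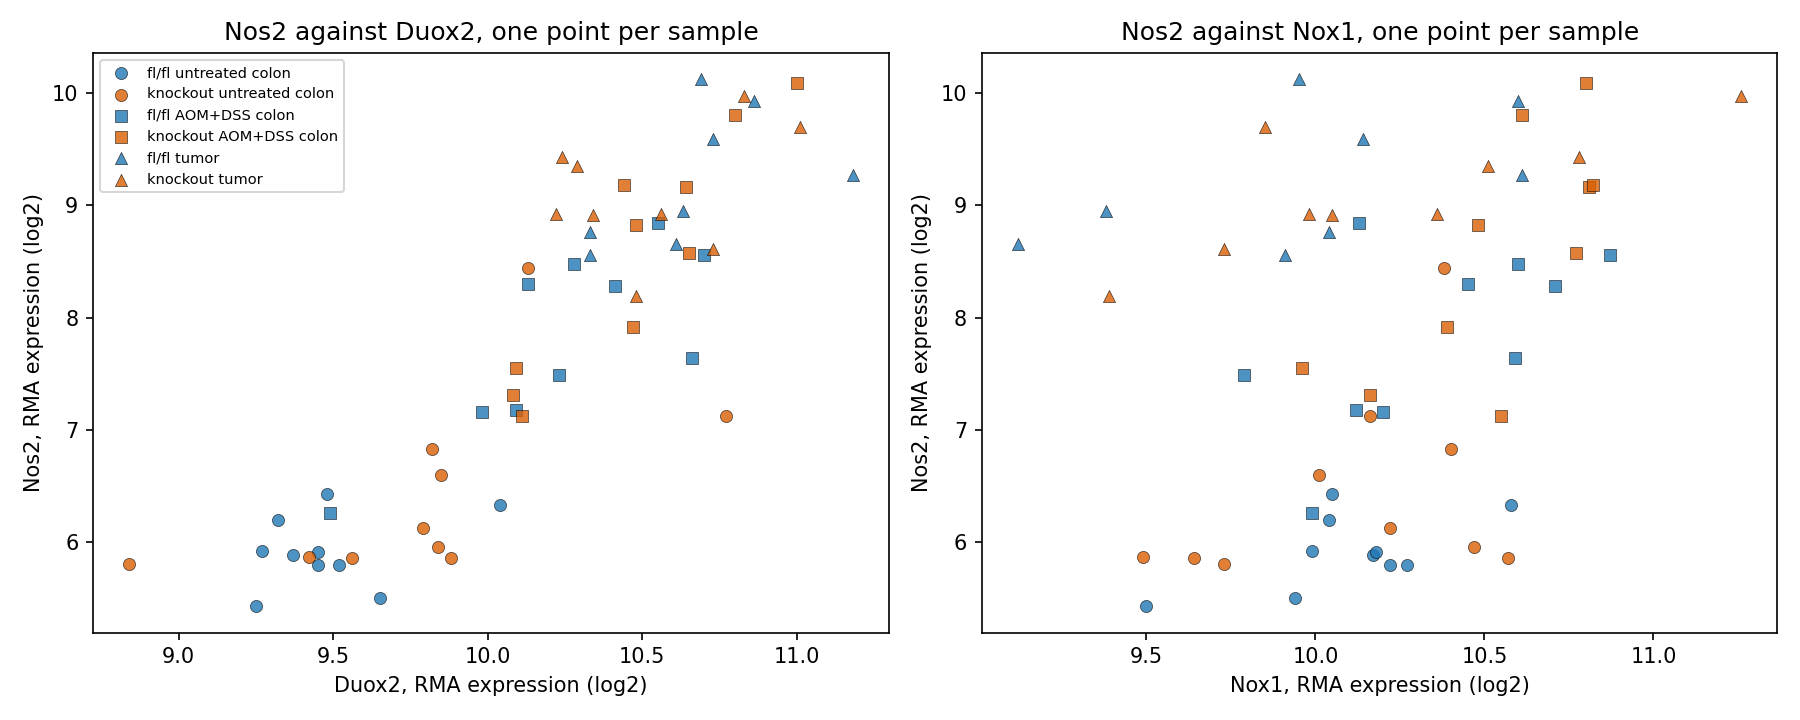
Nos2 against Duox2 (left) and against Nox1 (right), both axes RMA expression on the log2 scale, with 1 point per sample (blue fl/fl, orange knockout; circles untreated colon, squares AOM+DSS colon, triangles tumors). In knockout AOM+DSS colon (orange squares) Nos2 and Duox2 lie along a line (r = 0.92), with Nos2 between 7.12 and 10.09.

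Over deviations from group means in the 57 samples, which share a platform and scaling, Duox2 correlated with Nos2 at 0.65 and with Nox1 at 0.44, and Nos2 with Nox1 at 0.53. These values are descriptions with no test. Noxa1 correlated at 0.73 with the mean of the epithelial markers and at -0.49 with that of the squamous markers. Nos2 correlated at 0.46 with the neutrophil list, at 0.44 with the T cell list, at 0.14 with the macrophage list and at -0.42 with the smooth muscle list. Duox2 correlated at 0.43 with the T cell list, 0.26 with the epithelial list and 0.047 with the neutrophil list. For Gpx2 the value was 0.29 with the epithelial list and -0.36 with the smooth muscle list.

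By the same measure over deviations from group means, the genes most like Duox2 were Kcnk6 (r = 0.75), Iqgap2 (0.74) and Ddah1 (0.74), the last an enzyme that breaks down inhibitors of nitric oxide synthases. Those most like Nox1 were Orc1 (0.70), Trip13 (0.70) and Exo1 (0.66), which act in DNA replication, chromosome segregation and DNA repair. Those most like Noxa1 were Fkbp2 (0.79), Mydgf (0.77) and Slc22a18 (0.76), those most like Nos2 were Mfsd2a (0.77), Trim15 (0.77) and Tnfrsf1b (0.76), and those most like Gpx2 were Shtn1 (0.60), Dhodh (0.56) and Ddt (0.56). Over all 57 values without removing group means, Nos2 was closest to Trim15 (0.94) and Tnfrsf1b (0.94), a TNF receptor gene, and Duox2 to Plet1 (0.91) and Dhrs9 (0.89).

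The phagocyte oxidase is the myeloid relative of the Nox1 complex. All 5 of its measured genes rose in AOM+DSS colon in both genotypes (median log2 change 0.93 in fl/fl and 1.10 in knockout mice), where 22.7% and 30.2% of all genes passed. All 9 neutrophil and all 10 macrophage markers rose in the same comparisons, and their part in these values was not tested. Cybb, the catalytic subunit, changed by 1.32 ± 0.14 and 1.59 ± 0.14, and Ncf1, the organizer, by 0.97 ± 0.10 and 1.10 ± 0.10. In tumors against AOM+DSS colon, Cyba, the membrane partner that Nox1 also uses, was higher by 0.94 ± 0.082 and 0.93 ± 0.08, the single rise of the list in either genotype. Cybb changed by -0.061 ± 0.15 in fl/fl tumors, and by -0.42 ± 0.14 in knockout tumors, where Rac2, Cybb and Ncf4 passed as lower.

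Among other oxidases, Duox1 and its maturation factor Duoxa1 changed by 0.55 ± 0.14 and 0.57 ± 0.16 in fl/fl AOM+DSS colon (limma adjusted p = 0.00381 and 0.0083), and by -0.51 ± 0.15 and -0.49 ± 0.17 in fl/fl tumors against it. In knockout mice Duoxa1 rose by 0.53 ± 0.16 and Duox1 changed by 0.30 ± 0.14 without passing (limma adjusted p = 0.112), and both were lower in tumors. Nox4, a constitutively active oxidase, rose by 0.29 ± 0.095 in fl/fl and 0.34 ± 0.095 in knockout AOM+DSS colon (limma adjusted p = 0.0231 and 0.00419) and did not pass in tumors against it. Of 9 squamous markers, 6 were higher in AOM+DSS colon of either genotype, beside 12.2% of all genes in fl/fl and 16.0% in knockout mice. In tumors against AOM+DSS colon 2 of 9 in fl/fl and 4 of 9 in knockout mice were lower, beside 20.2% and 21.4% of all genes. The fl/fl tumor count lay near that share. The part of squamous epithelium in the Duox1 and Duoxa1 values was not tested.

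Of 16 genes that supply, limit or sense nitric oxide, 3 rose and 0 fell in fl/fl AOM+DSS colon, and 4 rose and 0 fell in knockout mice, below the shares of all genes that passed there (22.7% and 30.2%). Arg1, an arginase that consumes the substrate of nitric oxide synthases, rose by 2.20 ± 0.47 and 2.61 ± 0.47. Gch1, which makes the precursor of the synthase cofactor tetrahydrobiopterin, rose by 0.47 ± 0.11 and 0.83 ± 0.11. In tumors against AOM+DSS colon 4 rose and 3 fell in fl/fl mice, and 4 rose and 4 fell in knockout mice, near the shares of all genes (41.2% and 42.9%). Those that fell in both included the nitric oxide receptor subunits Gucy1a1 (-1.78 ± 0.15 and -1.98 ± 0.15) and Gucy1b1 (-0.91 ± 0.095 and -0.90 ± 0.092), and Nos1, the neuronal synthase (-0.73 ± 0.087 and -0.81 ± 0.084), beside the lower smooth muscle markers given above, whose part was not tested. Ddah2 rose by 0.87 ± 0.11 and 0.80 ± 0.11.

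Genes that remove peroxide and superoxide moved in both directions. Of 15 measured, 5 rose and 1 fell in fl/fl AOM+DSS colon, and 4 rose and 4 fell in knockout mice, beside 22.7% and 30.2% of all genes passing in either direction. Sod1, the cytosolic superoxide dismutase, changed by -0.34 ± 0.054 and -0.44 ± 0.054, and the extracellular Sod3 by 0.48 ± 0.11 and 0.56 ± 0.11. In tumors against AOM+DSS colon 5 rose and 4 fell in fl/fl mice, and 5 rose and 3 fell in knockout mice. There 41.2% and 42.9% of all genes passed in either direction. Prdx2, a peroxiredoxin, rose by 0.69 ± 0.06 and 0.81 ± 0.058, and Gpx1, the ubiquitous relative of Gpx2, by 0.30 ± 0.044 and 0.22 ± 0.042. Among 8 targets of the oxidant-responsive factor Nrf2, 2 rose in fl/fl and 3 in knockout AOM+DSS colon, with none lower in either, near the shares of all genes (22.7% and 30.2%). Slc7a11, the cystine importer, rose by 1.49 ± 0.21 and 2.20 ± 0.21, and Hmox1, heme oxygenase, by 1.08 ± 0.15 and 1.34 ± 0.15. In tumors against AOM+DSS colon 4 rose and 3 fell in either genotype, beside 41.2% and 42.9% of all genes passing in either direction. Slc7a11 rose further, by 1.55 ± 0.23 and 1.04 ± 0.22, while Nqo1, a quinone reductase, changed by -0.67 ± 0.15 and -0.86 ± 0.14.

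Heme peroxidases use hydrogen peroxide as their substrate, and 4 were measured. In AOM+DSS colon Lpo, lactoperoxidase, rose by 0.87 ± 0.23 and 0.84 ± 0.23 and Pxdn, peroxidasin, by 0.36 ± 0.10 and 0.31 ± 0.10. Mpo, the neutrophil enzyme, changed by -0.17 ± 0.095 in both without passing (limma adjusted p = 0.178 and 0.17). Pxdn was the single gene of this list to pass in tumors against AOM+DSS colon, at 0.32 ± 0.11 and 0.39 ± 0.11, where 41.2% and 42.9% of all genes passed.

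**Figure D4:**
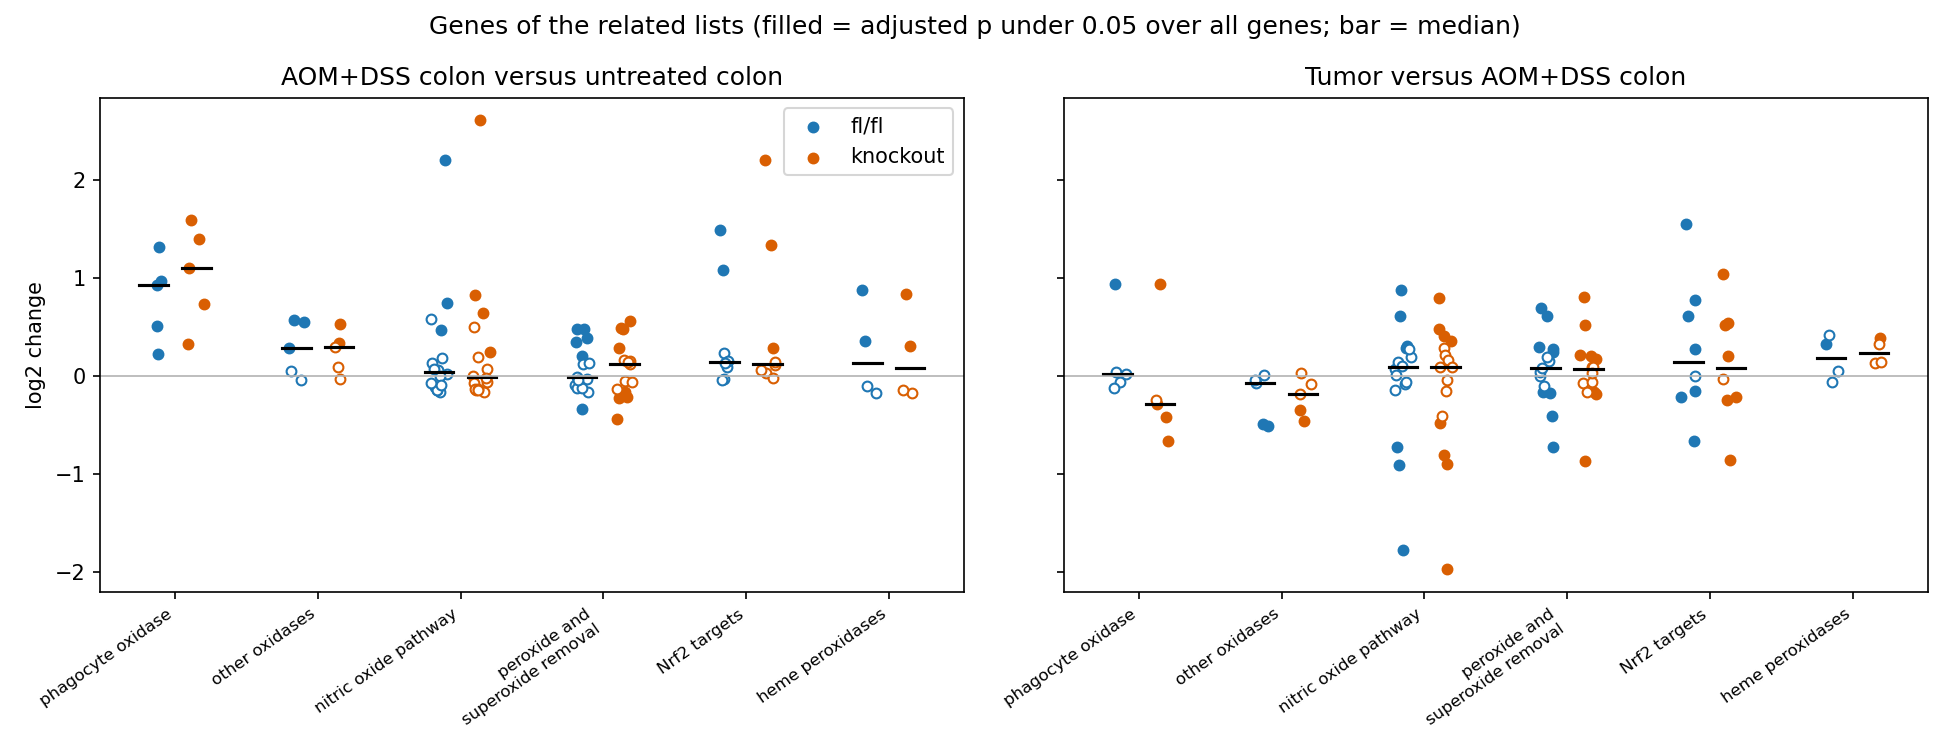
Log2 change (y axis) of each measured gene in 6 related lists (x axis) in AOM+DSS colon against untreated colon (left) and in tumors against AOM+DSS colon (right), blue for fl/fl and orange for knockout mice. Filled points passed the limma test over all genes, and bars are list medians. On the left all 5 phagocyte oxidase genes are filled and above 0 in both genotypes, and on the right Cyba, at 0.94 and 0.93, is the single filled point above 0 in that list.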

How the data were processed

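Total RNA from 57 samples of mouse distal colon or colon tumor was labelled with the Affymetrix WT Plus kit and hybridised, per the labels' protocols. The deposited values are log2 expression made by the authors with RMA, per the submitters' processing notes, with no version given in the sources used here. Of 41345 probe sets, 23521 carry 1 gene symbol, 1814 several and 16010 none. The brightest single-symbol probe set was kept for each of 22180 genes. Of 6 gene pairs planned for correlation 4 could be computed, since Duoxa2 and Noxo1 share their probe sets with other genes.

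Groups were compared with limma 3.58.1 in R 4.3.3, in 1 model of 6 group means (51 residual degrees of freedom), with Benjamini-Hochberg adjustment over all genes and a threshold of 0.05. On simulated data for the fl/fl AOM+DSS comparison (22180 genes), 90% of 100 genes changed by 0.5 log2 and 98% of 100 changed by 1 were called. There were 6 false calls. The simulated noise was independent and normal, and far fewer genes changed than passed in the real comparison. The shares are averages over genes of any spread. Pairs used exact or 100000-draw two-sided permutations. The number of arrays limits the precision, and p-values measure the spread between samples that the labels call biological replicates. No batch is named in the labels.

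The genes, lists and named genes were chosen with earlier results of these data known. Named genes are the 7 genes and Insr, up to 4 genes per related list with the smallest adjusted p in a comparison, and the 3 genes most correlated with each measured gene by either measure, leaving out predicted models and repetitive families. All 12 motifs searched are reported. Alternatives were 2 scalings, a dim-gene filter, mean probe sets, a trended robust variance, only the groups compared, array weights, a replicate block and leaving out single arrays. After the data were seen, 3 of the 10 marker list means (squamous epithelium, distal colon position, smooth muscle) were added as covariates, 1 at a time. The other 7 were not tried.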

Additional observations from a re-analysis of the deposited data

Results flagged for a closer look

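In each of the 6 groups, the 5 measured genes, Insr and the marker list means were searched for a highest or lowest sample that stood apart from the rest of its group by Dixon's criterion. Of 96 searches 9 stood apart, where about 4.8 are expected at 1 in 20.

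Among the genes themselves, Nos2 was 8.44 in knockout untreated colon replicate 5, with the next sample at 7.12. Duox2 was 10.04 in fl/fl untreated colon replicate 4, with the next at 9.65, and in the same sample Gpx2 was 4.06, with the nearest at 4.70, and the macrophage list mean was 8.91, with the next at 8.62. Noxa1 was 8.38 in knockout untreated colon replicate 1, with the nearest at 9.00.

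Among marker lists, the macrophage mean was 9.76 in fl/fl AOM+DSS colon replicate 4, the B cell mean 8.09 in fl/fl tumor replicate 3 and the squamous mean 8.35 in knockout tumor replicate 6. The distal colon position mean was 6.94 in knockout untreated colon replicate 2, which also held the highest Duox2 (10.77) and Noxa1 (9.48) values of its group. Without that sample Duox2 changed by 0.79 ± 0.14 and Noxa1 by -0.44 ± 0.11 in knockout AOM+DSS colon, and both still passed (limma adjusted p = 8.37e-06 and 0.00111).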

How the results depend on the processing

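Under the other scalings, filters, variance models, weights and the replicate block, with all arrays kept, the 136 called values of single genes stayed called in the same direction. Of 304 that were not called, 12 became called and 6 changed sign, each without passing in either fit. With array weights these were Nox1 in knockout tumors against untreated colon (-0.012) and between genotypes in untreated colon (-0.00024), and 3 genotype differences in change, Duox2 in AOM+DSS colon (0.0071), Nox1 in tumors (-0.089) and Gpx2 in tumors (-0.056). With arrays shifted to 1 median it was Nox1 between genotypes in untreated colon (-0.0069). The number of genes called in knockout tumors against AOM+DSS colon was 2 with array weights, against 1, and 1 to 2 without single arrays. With arrays shifted to 1 median 2 gene pairs correlated, against 1. The causes were not tested.

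The labels do not say that replicate numbers pair samples, and the numbers were not taken as pairs. Deviations of same-numbered samples correlated at means of -0.0392 to 0.0959 over the pairs of groups. For samples with other numbers the means were -0.0121 to 0.00445. These values cannot decide whether the numbers mark pairs. With the replicate block 4 of 5 genes were called in AOM+DSS against untreated colon in each genotype, against 3, since Gpx2 in fl/fl (-0.42, limma adjusted p = 0.0446) and Nox1 in knockout mice (0.43, 0.0352) passed, and counts elsewhere were the same.

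With a marker list mean as a covariate, 37 of 51 called values kept call and direction, 11 lost the call and 3 changed sign, and of 114 uncalled values 11 became called and 14 changed sign. The genes called in fl/fl tumors against AOM+DSS colon numbered 1 with smooth muscle (against 3), and that 1 was Nox1, which had not been called, while Duox2, Nos2 and Gpx2 lost their calls. In knockout tumors they numbered 2 with the squamous and 2 with the distal list (against 1), and against untreated colon 0 with smooth muscle (against 4). In tumors against AOM+DSS colon, the sign changes were Noxa1 in fl/fl mice (-0.06 squamous, -0.057 distal, -0.083 smooth muscle), Duox2 in knockout mice (-0.0026, -0.034 and -0.23 in that order) and, with smooth muscle, Nos2 (-0.44 fl/fl, -1.22 knockout) and Gpx2 (-0.013 fl/fl). Against untreated colon they were Gpx2 (-0.42 fl/fl, -0.16 knockout) with smooth muscle and Nox1 in knockout mice (-0.0055 distal, -0.92 smooth muscle). Between genotypes they were Nox1 in untreated colon (-0.037 distal), Gpx2 in AOM+DSS colon (-0.0025 smooth muscle), Noxa1 in tumors (0.021 distal) and the Nos2 difference in the AOM+DSS change (-0.014 smooth muscle). Duox2 and Nos2 kept their calls in AOM+DSS against untreated colon with each of the 3 lists. The neutrophil, macrophage and T cell lists, whose markers rose in that comparison, were not tried as covariates.

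Without single arrays, sign changes were seen in values that had not passed, with Nox1 at -0.053 to 0.082 between genotypes in untreated colon and at -0.079 to 0.15 for the genotype difference in the tumor change. The Gpx2 probe set was dim, with its mean at the 22.5th percentile of all genes.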
